A study of Mus musculus with 206 samples.

Results

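H3K27ac, the acetyl mark on lysine 27 of histone H3 that lies at active promoters and enhancers, was mapped in neuronal nuclei of 4 mouse brain regions, and the widest stretches of the mark are described here. The wide domains are the 300 widest consensus regions of each brain region, chosen by end minus start, with ties settled by chromosome and start. They make up 1200 of the 108274 consensus regions of prefrontal cortex (PFC), hippocampus, hypothalamus and striatum. Widths chose the members, so widths are given as a description and were not tested.

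Most stretches of acetylated chromatin cover a promoter or a single enhancer. Where many enhancers stand close together the mark can run on without a gap, and such wide domains are known for lying at genes that set the identity of a cell. In neurons these include genes for transcription factors, for synaptic proteins and for microRNAs such as miR-9 and miR-124, which are abundant in brain. Each microRNA pairs with its target messenger RNAs mainly through its seed.

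The sequences shown are those of a miR-9 hairpin and of the promoters of Cyth1 and Fam53b. They were picked from the sequences at hand and not by a ranking. The hairpin, Mir9-2, lay in a wide domain in all 4 brain regions. Cyth1 and Fam53b are 2 of the 4 genes with a start site in a wide domain everywhere. The mature arms of Mir9-2 (chr13:83738814-83738885, plus strand of GRCm38, the assembly also named mm10) are shown first, from RefSeq, with the seed (bases 2 to 8) in capitals.
mmu-miR-9-5p: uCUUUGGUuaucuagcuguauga
mmu-miR-9-3p: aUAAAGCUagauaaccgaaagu

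Promoters follow as RefSeq windows of GRCm38.p6 that run from 250 bases before to 50 bases after a start, 5′ to 3′ on the minus strand of these genes, with every CG dinucleotide in capitals. The first promoter of each gene lay inside wide domains, and the second is a start further upstream that lay outside them.
Cyth1, inside the wide domains of all 4 brain regions, chr11:118202681-118202980: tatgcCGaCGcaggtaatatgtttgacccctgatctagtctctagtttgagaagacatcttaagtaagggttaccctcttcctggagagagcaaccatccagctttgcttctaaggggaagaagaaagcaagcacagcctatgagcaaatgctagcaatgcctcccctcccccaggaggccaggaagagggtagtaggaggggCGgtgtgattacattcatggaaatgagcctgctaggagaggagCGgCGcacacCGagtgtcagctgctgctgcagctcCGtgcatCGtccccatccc
Cyth1, outside, chr11:118248509-118248808: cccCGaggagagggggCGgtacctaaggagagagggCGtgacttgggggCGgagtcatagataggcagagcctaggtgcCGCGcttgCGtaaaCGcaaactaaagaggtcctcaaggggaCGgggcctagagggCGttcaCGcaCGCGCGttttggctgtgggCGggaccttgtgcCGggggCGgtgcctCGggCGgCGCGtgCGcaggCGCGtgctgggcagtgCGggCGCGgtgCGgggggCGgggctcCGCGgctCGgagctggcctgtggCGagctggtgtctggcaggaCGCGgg
Fam53b, inside the wide domains of hippocampus, hypothalamus and striatum, chr7:132776867-132777166: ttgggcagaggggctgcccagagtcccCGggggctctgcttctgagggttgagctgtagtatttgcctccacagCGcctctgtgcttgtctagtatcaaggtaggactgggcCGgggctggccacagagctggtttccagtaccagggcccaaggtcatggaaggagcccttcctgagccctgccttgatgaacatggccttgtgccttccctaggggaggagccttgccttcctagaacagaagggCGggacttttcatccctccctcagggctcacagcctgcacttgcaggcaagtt
Fam53b, outside, chr7:132813147-132813446: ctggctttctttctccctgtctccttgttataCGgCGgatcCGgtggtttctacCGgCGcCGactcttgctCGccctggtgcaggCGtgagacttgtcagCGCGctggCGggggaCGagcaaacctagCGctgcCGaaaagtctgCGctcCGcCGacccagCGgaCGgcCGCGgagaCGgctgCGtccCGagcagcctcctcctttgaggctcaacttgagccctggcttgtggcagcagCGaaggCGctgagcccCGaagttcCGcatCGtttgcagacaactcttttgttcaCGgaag
The inside windows held 8 and 4 CG dinucleotides and the outside windows 35 and 30, against a median of 7 over all 32851 promoter windows of the genome. The inside windows thus held fewer CG dinucleotides than the outside windows shown here.

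The animals were wild-type C57BL/6NTac mice. Their perinatal treatment was morphine (MOR) or saline (SAL), and their adult challenge was saline or lipopolysaccharide (LPS), a bacterial product that provokes inflammation. Dams carried minipumps releasing morphine at 10 mg/kg per day, and pups were injected with 10 mg/kg at a time on postnatal days 1 to 14, after being moved to surrogate mothers that had received no drug. Brain punches were taken 2 h after the adult injection, nuclei were sorted for the neuronal protein NeuN, and 1 library was made per animal and brain region. In the group names the perinatal agent stands before the adult one, and SAL-SAL animals had saline both times. The comparisons used 8 libraries of SAL-SAL, 9 of MOR-SAL, 11 of SAL-LPS and 14 of MOR-LPS from PFC, then 11, 11, 12 and 10 from the hippocampus, 8, 12, 11 and 10 from the hypothalamus, and 10, 7, 13 and 15 from the striatum. Where 4 values stand in a row without other names, they belong to PFC, hippocampus, hypothalamus and striatum. PFC libraries were made with another kit than those of the other 3 brain regions, so kit and brain region cannot be told apart there. Animals of a group can share the first number of their name, whose meaning the labels do not give, and each such number occurred with 1 perinatal treatment.

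Libraries held from 10811 to 143527 peaks. The PFC library MOR-SAL male 13-1 stood apart, with 1.07% of its peaks in the PFC consensus and 0.0037% of the wide domains covered. In 9 libraries, at least 20% of 13 oligodendrocyte markers had a peak within 1 kb of the start, although the nuclei had been sorted as neuronal. Of 12 neuron markers the group means ranged from 17.2% to 47.2%, and no microglia marker had such a peak in any PFC, hypothalamus or striatum library.

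Mean widths were 16964 ± 4482, 24456 ± 9230, 14303 ± 3857 and 24036 ± 7084 bp (SD over 300 domains each). The domains were 1.64%, 1.85%, 2.18% and 0.5% of the consensus regions and held 6.66%, 7.54%, 7.29% and 4.01% of the consensus bases. The limit lay where widths hardly differed between neighbours. In PFC the last domains inside it, in Nbas, Dscaml1 and Tom1l2, measured 12926, 12915 and 12912 bp, and the first outside, in Wdr20, at Nfib and in Pik3c2b, measured 12879, 12864 and 12849 bp. In the hippocampus the domains in Tmem108, Gm37240 and Slc24a2 (17677, 17670 and 17648 bp) were inside and those near Trmt61a, in Zmat4 and in Slc24a2 (17636, 17624 and 17619 bp) outside. In the hypothalamus the domains in Phactr3, Wdfy2 and Rbfox3 (10902, 10901 and 10879 bp) were inside and those at Josd2, in Celf4 and in Brinp1 (10864, 10848 and 10839 bp) outside. In the striatum the domains in Epn2, Nsg2 and Grin2b (17866, 17865 and 17850 bp) were inside and those at Trim59, in Gnal and in Foxp1 (17819, 17784 and 17784 bp) outside.

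**Figure D1:**
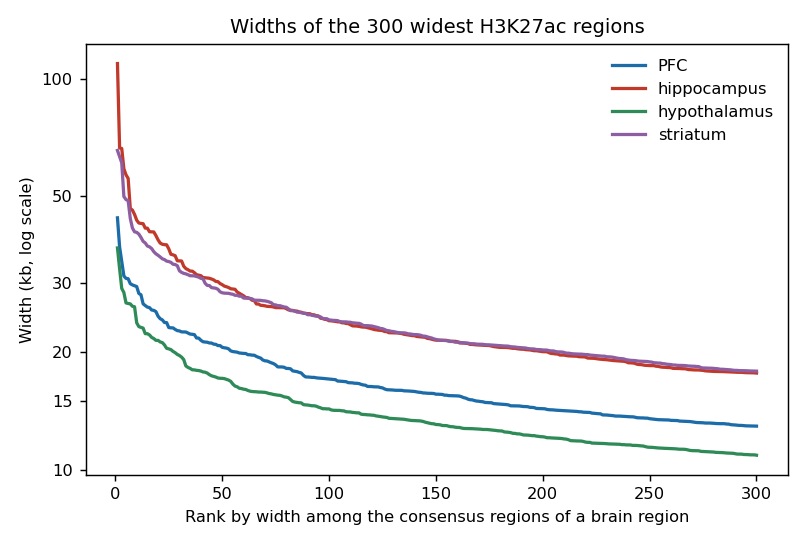
Width in kb on a log scale against width rank for the 300 widest H3K27ac consensus regions, 1 line per brain region. Hippocampus and striatum run together above PFC, and hypothalamus lies lowest, from 36.886 kb at rank 1 to 10.879 kb at rank 300.

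The widest of all was a stretch of 109271 bp in the hippocampus (chr14:64131553-64240823), inside Msra, which encodes an enzyme that repairs oxidised methionine. The same gene held the widest domain of the hypothalamus (chr14:64131584-64168469), 36886 bp that lay within the hippocampal stretch. In PFC the widest, 44038 bp, covered a start of Arpp21 (chr9:112162009-112206046), a cAMP-regulated phosphoprotein abundant in striatal neurons. In the striatum the widest, 65500 bp, lay inside Coro2b (chr9:62465763-62531262), a coronin that binds actin.

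The rest of the 10 widest of each brain region follow in order of width. In PFC the next were at Kalrn, in Myo5a, at Mir9-2, in Syt1, in Itpr1, at Mir124a-2, in Celf2, in Syt1 again and in Trio, from 37094 to 29378 bp. Syt1 encodes the calcium sensor of transmitter release, and Kalrn and Trio are exchange factors that act on the actin skeleton. In the hippocampus they were in Grin2a, at Add2, in Celf2, Coro2b, Msra, Kalrn and Rbfox3, at Lrrc4 and in a stretch of chromosome 3 with no gene within 100 kb, from 66459 to 43439 bp. Grin2a encodes a subunit of the NMDA receptor and Rbfox3 the NeuN protein used for the sort. In the hypothalamus they were in Gnao1, Gabbr2, Tppp, Anks1b, Usp29 and Celf4, at Phactr3 and Wscd1, and in Gnao1 again, from 32629 to 23731 bp. In the striatum they included domains in Amz1, Ncam1, Zeb2, Bcl2l1, Itsn2 and Sik3 and near Ppp2r2a and Sept7, from 63158 to 40432 bp.

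Wide domains lay mostly within genes and away from their starts. A protein-coding start site was held by 62, 66, 66 and 75 of 300 (20.7%, 22%, 22% and 25%), against 22.9%, 20.2%, 26.4% and 14.4% of the other consensus regions, although a wide domain has more bases in which to hold a start. A further 208, 190, 207 and 199 lay inside a gene without a start, and 15, 17, 11 and 12 had no protein-coding start within 100 kb and no host gene. The bases of wide domains were intronic for 82.6%, 77.3%, 84.5% and 82.9%, compared with 64.2%, 62%, 67% and 64.9% in the other regions, and exonic for 4.12%, 3.53%, 2.93% and 3.55%. Host genes of domains without a start had median lengths of 188, 271, 191 and 171 kb, against 161, 172, 165 and 179 kb for those of the other regions. No wide domain lay on the X chromosome. It held 196, 74, 57 and 702 of the other regions (1.09%, 0.465%, 0.423% and 1.18%), so few of 300 would lie there at such shares.

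Where a wide domain held the start of 1 gene, it lay mostly downstream of that start. Medians of 81.9%, 74%, 69.3% and 81.6% of its bases lay downstream (61, 61, 65 and 70 domains). Where the gene had several starts inside the domain, the most upstream was used, which gives the largest share. The end of the gene was not taken into account, so these bases need not lie in the gene body. Promoter windows lying wholly inside a wide domain held medians of 8, 7, 6 and 9 CG dinucleotides (96, 126, 98 and 126 windows), against 17, 15, 16 and 18 in windows inside the other consensus regions. Windows with at least 10 CG dinucleotides made up 43.8%, 35.7%, 27.6% and 47.6% within wide domains and 72.9%, 64.5%, 69.6% and 72.6% in the others. Over their whole length wide domains had 1.12, 1.19, 1.17 and 1.07 CG dinucleotides per 100 bp, and the other regions 1.72, 1.52, 1.77 and 1.53, while GC content differed little (44.9% against 46.4% in PFC and 47.2% against 48% in the hypothalamus). The genome median was 7, with 43.5% of windows at 10 or more, so that windows in wide domains lay near it and those in the other regions above it. Over all 271 windows of the 153 genes with a start in a wide domain and an entry in the table, the median was 12 and 55.4% had at least 10. A gene can have several windows, so windows are not independent.

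**Figure D2:**
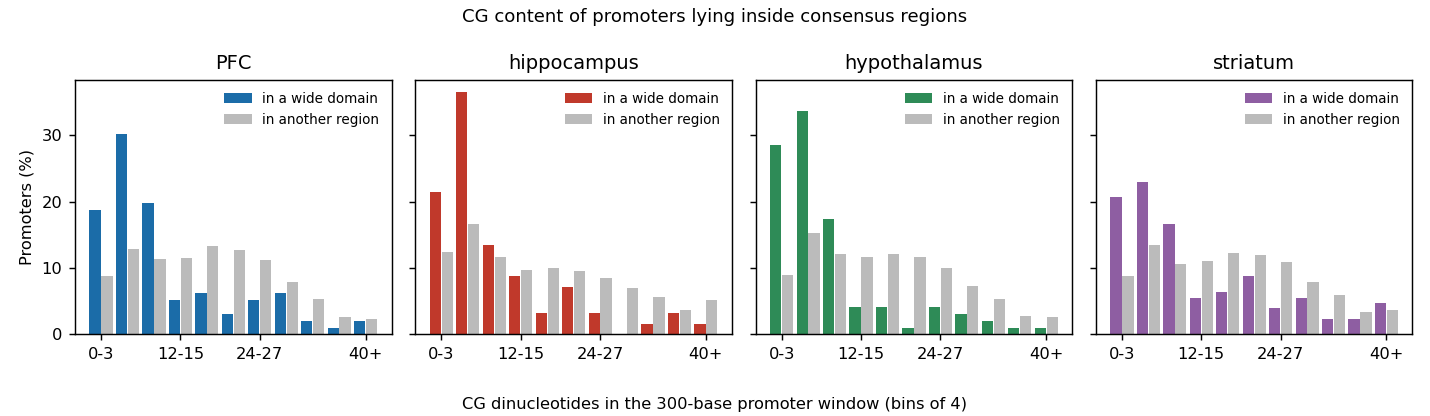
Share of promoter windows (percent) by number of CG dinucleotides, in bins of 4, for windows lying inside wide domains (coloured) and inside other consensus regions (grey) of each brain region. Windows in wide domains pile up below 12 CG dinucleotides, and the medians are 8, 7, 6 and 9 against 17, 15, 16 and 18.

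Several genes held more than 1 wide domain. In all, 587 protein-coding genes were overlapped in any brain region and 29 in all 4, and 41, 42, 42 and 42 genes held at least 2 domains. Myt1l, a transcription factor that represses non-neuronal genes, held 8, 9, 4 and 2 domains, which summed to 135.8 kb of its 394.8 kb in PFC and 217.3 kb in the hippocampus. Anks1b, a postsynaptic scaffold protein, held 6, 6, 6 and 4 over 1099.8 kb, and Msra held 3, 5, 5 and 6. Syt1 held 5, 3, 1 and 3. Celf2, which encodes an RNA-binding protein, had 9 domains in PFC, 3 in the hippocampus and 4 in the striatum. Long genes can hold more domains, and counts were not set against gene length.

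Of the 1200 domains 55.3% overlapped a wide domain of another brain region by at least 1 bp. Those that were wide in no other brain region numbered 104, 169, 134 and 129. PFC and striatum shared most, with 128 of the PFC domains (42.7%) and 118 of the striatum domains (39.3%) overlapping. Hippocampus and striatum shared least, at 63 (21%) and 66 (22%). Merged over brain regions, the domains formed 536 loci wide in 1 brain region, 152 in 2, 73 in 3 and 26 in all 4.

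A domain that was wide in 1 brain region usually overlapped some consensus region of the others too. Of the PFC domains 299 of 300 overlapped some consensus region of the striatum, 265 of the hippocampus and 244 of the hypothalamus. The hypothalamus domains overlapped a striatum region in 300 of 300. The striatum domains had the fewest counterparts, with 80 of 300 overlapping no hippocampus region, although the consensus of the striatum was the largest. The consensus lists differed in size, from 13788 to 60013 regions, and its part in the overlaps was not tested. A wide region also has more bases in which to meet another list. The share of the other consensus regions with such an overlap was not counted, so the counts show no trait particular to wide domains.

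Libraries were also read at the domains of every brain region, with all lists of the 4 brain regions cut to the same covered length. PFC domains were covered for 8.13% ± 2.48 by PFC libraries (SD, n = 42), 5.55% ± 2.16 by hippocampus (n = 44), 2.98% ± 1.13 by hypothalamus (n = 41) and 6.67% ± 2.57 by striatum libraries (n = 45). For hippocampus domains the values in the same order of libraries were 4.63% ± 1.45, 7.32% ± 2.61, 2.59% ± 1.09 and 3.78% ± 1.04, and for striatum domains 4.14% ± 1.88, 2.98% ± 1.26, 2.54% ± 1.25 and 5.05% ± 3.33. Hypothalamus domains were covered for 5.45% ± 1.96, 6.52% ± 2.36, 5.41% ± 1.57 and 6.58% ± 3.03, so that their own libraries did not give the highest mean. Hippocampus domains that were wide nowhere else were covered for 6.19% ± 2.41 by peaks in hippocampus libraries (SD, n = 44). In libraries of PFC (n = 42), hypothalamus (n = 41) and striatum (n = 45) the same domains were covered for 2.1% ± 0.788, 1.53% ± 0.972 and 1.78% ± 0.771. Hippocampus domains shared with another brain region were covered for 8.77% ± 3.27 by hippocampus, 7.9% ± 2.49 by PFC, 3.96% ± 1.4 by hypothalamus and 6.35% ± 1.71 by striatum libraries. Each set of domains was drawn from the lists of its own brain region, whose value is favoured by the choice.

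The 10 loci of largest mean width among the 26 were in Coro2b, at Add2, near Sept7, at Kalrn, in Msra, in Zeb2, at Mir9-2, in Bcl2l1, in Zbtb16 and in Trappc12. Add2 encodes beta-adducin, which caps actin filaments, Zeb2 and Zbtb16 encode transcription factors, and Bcl2l1 encodes an inhibitor of apoptosis. Widths at a locus differed between brain regions: in Coro2b they were 14105, 56745, 14305 and 65500 bp. At Mir9-2 they were 31269, 31877, 17738 and 29196 bp. The hypothalamus domain was the narrowest at each of these 10 loci except Coro2b, where the PFC domain was slightly narrower. Hypothalamus domains also had the lowest mean width over all 300.

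**Figure D3:**
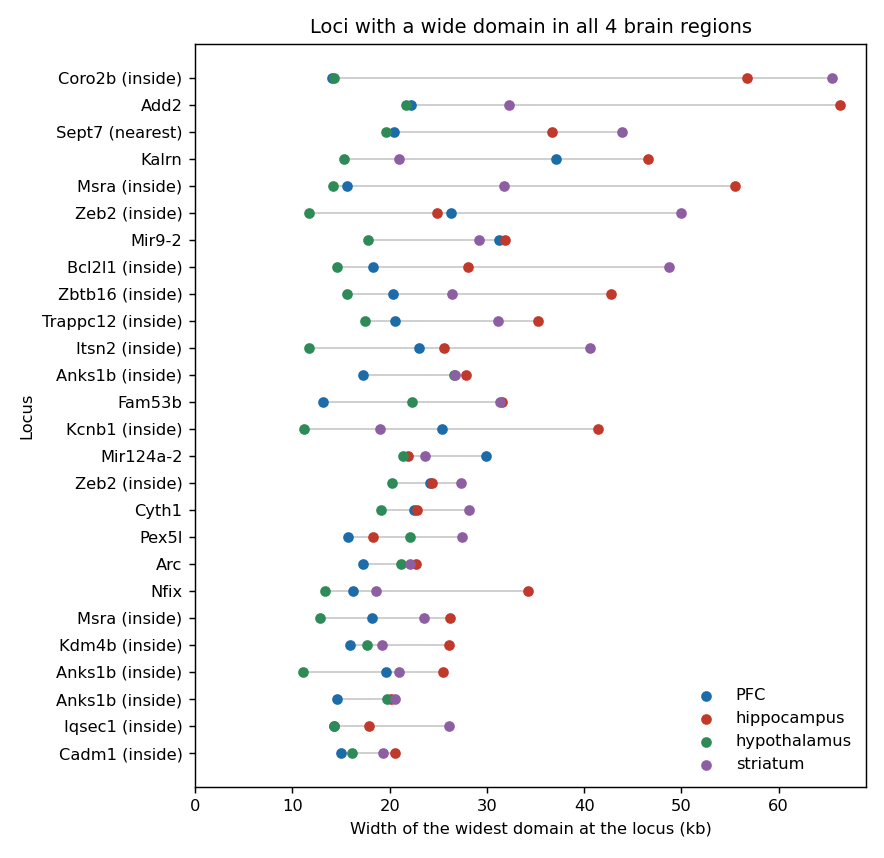
Width in kb of the widest domain at each of the 26 loci that were wide in all 4 brain regions, 1 point per brain region and a grey line over the range. Coro2b runs from 14.105 to 65.5 kb, while the Mir124a-2, Cyth1 and Arc loci keep within narrower ranges.

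Only 4 genes had a start site in a wide domain of every brain region, out of 201 in any and of 21840 protein-coding genes: Arc, Cyth1, Fam53b and Pex5l. Arc encodes a protein that neuronal activity induces at synapses, Cyth1 a cytohesin that activates ARF GTPases, and Pex5l a partner of HCN channels. Arc domains measured 17206, 22696, 21118 and 22040 bp, Cyth1 domains 22495, 22815, 19110 and 28132 bp, Fam53b domains 13101, 31502, 22261 and 31308 bp and Pex5l domains 15748, 18304, 22090 and 27446 bp. With only the 100 widest regions of each brain region no gene was left in all 4, and with the 500 widest there were 6.

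Of the 26 shared loci 2 held no protein-coding start within 100 kb, and each held the hairpin of a brain microRNA. The locus on chromosome 13 held Mir9-2, and Mef2c was the nearest protein-coding start, 137 kb away from the PFC domain. The locus on chromosome 3 (chr3:17778048-17807926 in PFC) held Mir124a-2, with Cypt12 at 140 kb. Over all brain regions 22 of 1228 microRNA hairpins of the RefSeq annotation lay in a wide domain. The copies of the same microRNAs differed in this. Mir124a-1 lay in a region of 32184 bp in the hippocampus, rank 35, and in regions of 7825, 7024 and 8633 bp in PFC, hypothalamus and striatum, while Mir124a-3 was in a wide domain nowhere. Mir9-1 lay in a region of 24179 bp in the hippocampus, rank 99, against 3485 bp in PFC and 3433 bp in the striatum, and in no consensus region of the hypothalamus. Mir9-3 lay in regions of 13358 bp (rank 733) in the hippocampus and 3054 and 5521 bp in PFC and striatum. Mir125b-1 lay in a wide domain in the hypothalamus alone of these lists, at rank 141, and its mature arm, shown again with the seed in capitals, has another seed than both miR-9 arms.
mmu-miR-125b-5p: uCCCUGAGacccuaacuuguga

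Start sites of gene lists were then looked up in the wide domains, beside 0.92% of all protein-coding genes with a start in any. Of 17 pan-neuronal transcription factors 6 were held: Mef2c, Klf9, Nfix, Myt1l, Tcf4 and Zbtb18. Myt1l was wide in PFC, hippocampus and hypothalamus, and Zbtb18 in the hippocampus only, at 28910 bp. Of 24 immediate early genes Arc alone was held. None of 20 chromatin regulators, 15 GABA transmission genes, 16 NF-kB and acute inflammation genes, 23 housekeeping genes or 29 hypothalamic neuron genes had a start in a wide domain. At a share of 0.92%, lists of these sizes would mostly hold none, so the zeros are a description.

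Genes of regional neuron lists were held partly in their own and partly in other brain regions. Of 18 cortical projection neuron factors 3 were held: Bcl11a in PFC (22178 bp), hippocampus (38679 bp) and striatum (22167 bp), Mef2c in PFC and Neurod2 in the hippocampus. Of 21 striatal projection neuron genes 3 were held, and all of them in PFC: Arpp21, Foxp2 (18139 bp) and Rgs9 (14540 bp), the last 2 not in the striatum. Of 10 thalamic neuron genes Slc17a6 and Tcf7l2 were held in the hypothalamus, at 11443 and 21399 bp, and Tcf7l2 also in the striatum, at 19732 bp. Zbtb20, a hippocampal transcription factor, measured 21073 bp in PFC, 29000 bp in the hippocampus and 11522 bp in the hypothalamus.

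Signalling and synaptic lists gave single members. Camk2a, the main kinase of the excitatory synapse, was held in PFC, hippocampus and hypothalamus, at up to 42614 bp, and Camkk1 in the hippocampus. Of 22 glutamate receptor genes 3 were held: Gria2 in PFC, Grik2 in the hypothalamus and Grm3 in PFC, hypothalamus and striatum, with 23211 bp in the last. Of 23 opioid system genes Gnao1 was held in the striatum and Rgs9 in PFC, and of 11 glucocorticoid-induced genes Klf9 was held in PFC. The RNA-binding protein genes Celf2 and Rbfox3 and the scaffold genes Dlgap1 and Psd3 were also held.

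Glial lists were looked up in the same way. No start of 11 astrocyte or 10 microglia markers was held. Beside 0.92% of all protein-coding genes, lists this short would mostly hold none, so the zeros set these lists apart from no other. Of 13 oligodendrocyte markers 4 were: Cnp (13212 bp) and Ermn (15135 bp) in PFC, Mbp in the hippocampus (21823 bp), the hypothalamus (12719 bp) and the striatum (28321 bp), and Cnp (19518 bp) and Mobp (19568 bp) in the striatum as well. These are myelin genes. Of 12 neuron markers 2 were held, Rbfox3 and Syt1.

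Few libraries carried a domain over its whole width. Within a library a wide domain held medians of 7, 9, 4 and 5 peaks, of which the longest measured 1414, 1574, 771 and 1065 bp in the median. The longest peak that any library gave spanned a median of 54.2%, 30.5%, 33.9% and 42.8% of the domain, and it spanned at least 80% in 83, 2, 4 and 29 of 300 domains. Domains were at least 50% covered in a median of 11 of 42, 10 of 44, 3 of 41 and 6 of 45 libraries. Often the longest peak came from the same library. In PFC it was SAL-SAL female 9-4 for 112 domains, in the hippocampus SAL-SAL male 1-1 for 125, in the hypothalamus MOR-LPS male 14-4 for 100 and MOR-LPS female 15-1 for 84, and in the striatum MOR-LPS female 16-2 for 126. A group that holds such a library therefore entered the comparisons below with part of the domains drawn from its own peaks.

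Domains differed in how many libraries carried them. Mir9-2 was the domain covered for at least 50% in most PFC libraries, 38 of 42, and was so covered in 26 of 44, 10 of 41 and 27 of 45 libraries of the other 3. The Mir124a-2 domain reached that level in 34 of 42, 9 of 44, 21 of 41 and 34 of 45 libraries. Bcl11a (37 of 42) and Myt1l (36 of 42) followed in PFC, Depdc5 (31 of 44) led in the hippocampus, a domain near 1700001O22Rik (29 of 41) in the hypothalamus and one near Lrrc74a (35 of 45) in the striatum. These leaders were chosen after their values were seen. Pex5l was wide in all 4 brain regions through few libraries, with at least 50% covered in 3 of 42, 3 of 44, 2 of 41 and 6 of 45.

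Treatment groups were compared by the percent of each consensus region that peaks covered, after each list was cut to its strongest peaks of the same total length within a brain region. Longer lists would otherwise cover more of every region. With the total length fixed, a library whose peaks cover more of some regions has less length left for others. Differences over wide domains and over all regions are therefore tied to each other. The test was limma over all regions with a peak in at least 20% of libraries, with group and sex as terms, and 210, 287, 282 and 219 of the 300 wide domains could be tested. The others had too few peaks in the cut lists, and the domains tested are those that stayed high after the cut.

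No wide domain passed an adjusted p of 0.05 by limma in any of the 16 comparisons. Over all regions tested, the percentages called for MOR-LPS vs SAL-LPS, MOR-SAL vs SAL-SAL, SAL-LPS vs SAL-SAL and MOR-LPS vs MOR-SAL were 0%, 0%, 0.0182% and 0% in PFC, 0%, 0%, 0.14% and 0% in the hippocampus, 0.262%, 0%, 0% and 0.0833% in the hypothalamus and 0.0682%, 0.0682%, 0% and 0.409% in the striatum. At an unadjusted p under 0.05 there were, in the same order of comparisons, 23, 6, 17 and 8 wide domains in PFC, 3, 13, 26 and 7 in the hippocampus, 71, 8, 15 and 66 in the hypothalamus and 69, 2, 2 and 50 in the striatum. As percentages of the wide domains tested these were 11%, 2.86%, 8.1% and 3.81% in PFC, beside 12.4%, 3.42%, 7.82% and 9.22% of all regions. In the hippocampus they were 1.05%, 4.53%, 9.06% and 2.44% beside 4.31%, 6.5%, 9.2% and 5.12%. In the hypothalamus they were 25.2%, 2.84%, 5.32% and 23.4% beside 14.9%, 5.97%, 8.13% and 14.8%, and in the striatum 31.5%, 0.913%, 0.913% and 22.8% beside 12.1%, 6.62%, 5.44% and 11.7%. With all libraries kept, the share of wide domains lay furthest above that of all regions in the 4 comparisons of MOR-LPS in hypothalamus and striatum. There MOR-LPS libraries gave the longest peak in many domains, as given above. The choice of members favours that group, so these shares are a description. Without MOR-SAL male 13-1, which set the length of the PFC lists, 255 PFC domains could be tested and the counts were 53, 7, 28 and 19 (20.8%, 2.75%, 11% and 7.45%), beside 13.1%, 4.25%, 8.96% and 9.48% of all regions. Without the PFC library of at least 20% oligodendrocyte markers they were 26, 4, 8 and 14. In both cases 0 domains passed after adjustment by limma. With full lists limma called 208 domains in the hippocampus for SAL-LPS vs SAL-SAL, all lower, beside 51% of all regions. It called 123 in the hypothalamus for MOR-LPS vs SAL-LPS beside 21.4%, 102 for MOR-LPS vs MOR-SAL beside 17%, and 159 in the striatum for MOR-LPS vs SAL-LPS beside 14%. Full lists differ in length. The number of peaks was 58741 ± 34115 in SAL-LPS and 96848 ± 23091 in SAL-SAL of the hippocampus (SD, n = 12 and 11). It was 76526 ± 34531 in MOR-LPS, 49653 ± 14512 in SAL-LPS and 52875 ± 22872 in MOR-SAL of the hypothalamus (n = 10, 11 and 12), and 65739 ± 30144 in MOR-LPS and 53490 ± 22804 in SAL-LPS of the striatum (n = 15 and 13). Groups also differed where full lists gave 0 calls, with 70836 ± 25133 in MOR-LPS and 95776 ± 34554 in SAL-LPS of PFC (n = 14 and 11). The part of the number of peaks in these calls was not tested.

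The mean covered percent of the wide domains was higher in MOR-LPS than in SAL-LPS in hypothalamus and striatum, and lower in PFC. In the hypothalamus it was 7.54% ± 1.54 in SAL-SAL (SD, n = 8), 7.77% ± 2.3 in MOR-SAL (n = 12), 7.4% ± 1.21 in SAL-LPS (n = 11) and 9.85% ± 3.05 in MOR-LPS (n = 10). In the striatum the means were 6.04% ± 3.56, 4.15% ± 0.527, 4.93% ± 1.48 and 8.19% ± 5.53 (n = 10, 7, 13 and 15). In PFC they were 10.7% ± 3.52, 9.33% ± 4.18, 11% ± 2.31 and 9.17% ± 1.98 (n = 8, 9, 11 and 14), and in the hippocampus 8.85% ± 1.94, 7.65% ± 2.58, 6.11% ± 2.58 and 6.7% ± 2.74 (n = 11, 11, 12 and 10). All groups of a brain region overlapped. Without the libraries of at least 20% oligodendrocyte markers and PFC male 13-1, SAL-SAL was at 9.49% ± 1.14 (n = 7) and MOR-SAL at 10.5% ± 2.45 (n = 8) in PFC, and in the striatum SAL-SAL was at 4.96% ± 1.09 (n = 9) and MOR-LPS at 6.15% ± 4.03 (n = 11). These means are over the chosen members and were not tested.

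**Figure D4:**
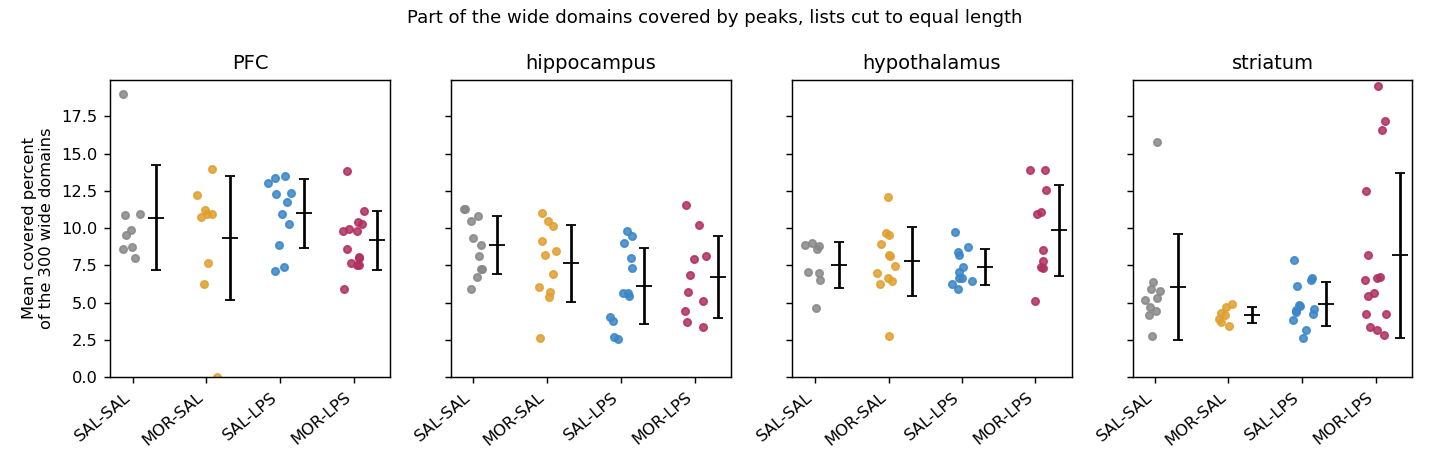
Mean covered percent of the 300 wide domains in each library (points) by treatment group and brain region, with peak lists cut to equal covered length. Bars give mean ± SD. In the striatum 3 MOR-LPS libraries and 1 SAL-SAL library lie above 15%, and 1 PFC library, MOR-SAL male 13-1, lies at 0.0037%.

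Even in lists of equal length the covered percent went with depth. Over libraries the correlation of the mean covered percent with the log10 number of peaks was r = 0.726, 0.787, 0.776 and 0.514 (n = 42, 44, 41 and 45). The PFC value includes the MOR-SAL male library that stood apart, which had the fewest peaks in PFC (11306) and 0.0037% covered. How far the PFC value rests on that library was not tested. The libraries of a brain region share the consensus that was made from them, and r is given as a description. The part of depth in the group differences was not tested beyond the fit that holds it as a term, in which limma also called 0 domains in each comparison.

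In the hypothalamus, 63 of the 71 domains at an unadjusted p under 0.05 for MOR-LPS vs SAL-LPS were higher in MOR-LPS. They were 25.2% of the wide domains tested, beside 14.9% of all regions, and the median difference was 1.49 percentage points over the wide domains and -1.32 over all regions. The cut to equal length ties these medians together, and its part in the opposite signs was not tested. With the number of peaks as a term 55 domains had such a p, and without the 2 libraries of at least 20% oligodendrocyte markers, both SAL-SAL, 70. None passed after adjustment, but limma called 4 without MOR-LPS 18-1 (0.833% of all regions), 3 without MOR-LPS 13-2 (0.797%) and 1 without MOR-LPS 7-1 (0.5%). The Mbp domain was covered for 8.66% ± 14.5 (SD) in MOR-LPS against 1.66% ± 3.73 in SAL-LPS, and 43 of the other 299 domains had r above 0.5 with it over 41 libraries. Neuron markers with a peak were 25% ± 21.2 in MOR-LPS and 37.9% ± 15.5 in SAL-LPS, oligodendrocyte markers 3.08% ± 3.97 and 2.8% ± 5.19, and astrocyte markers 9.09% ± 11.3 and 3.31% ± 6.13. Their part in the result was not tested.

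The domain inside Tspan14, a tetraspanin gene, came first there. It was covered for 0%, 33.5% and 80.3% in MOR-LPS (lowest, median and highest of 10 libraries) and 0%, 8.94% and 27.5% in SAL-LPS (11 libraries). The groups overlapped, and the difference was 25.9 ± 7.04 percentage points (SE, limma adjusted p = 0.0868). The domain inside Vgll4, a cofactor of TEAD transcription factors, was at 0%, 22.6% and 70.6% in MOR-LPS and 0%, 6.08% and 22% in SAL-LPS, a difference of 20.7 ± 6.04 (adjusted p = 0.113 by limma). The domain inside Abhd12, a lipase gene, was at 0%, 15.1% and 41.1% in MOR-LPS and was without a peak in 9 of 11 SAL-LPS libraries, a difference of 14 ± 4.06 (adjusted p = 0.113 by limma). Of the 10 MOR-LPS libraries 1, 1 and 3 were at 0 for the domains in Tspan14, Vgll4 and Abhd12.

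Against MOR-SAL, which shares the MOR-LPS libraries with the comparison above, 54 of 66 domains with an unadjusted p under 0.05 were higher in MOR-LPS. They were 23.4% of the wide domains tested beside 14.8% of all regions, and the median difference was 1.68 over the wide domains and -1.5 over all regions. These medians too are tied by the cut to equal length. Zbtb16, a transcription factor gene that responds to glucocorticoids, came first. Its domain was covered for 14.3%, 46.1% and 94.3% in MOR-LPS (10 libraries) and 0%, 10.4% and 35.4% in MOR-SAL (12 libraries), a difference of 33.2 ± 8.24 (limma adjusted p = 0.0765). Tspan14 was next, with 0%, 8.52% and 24.6% in MOR-SAL and a difference of 26.4 ± 7.04 (limma adjusted p = 0.0893). The domain inside Nfix, a nuclear factor I gene, had no peak in any of 12 MOR-SAL libraries and was at 0%, 7.93% and 65.6% in MOR-LPS (limma adjusted p = 0.0966). Neuron markers with a peak were 25% ± 21.2 in MOR-LPS and 47.2% ± 12 in MOR-SAL (SD), astrocyte markers 9.09% ± 11.3 and 5.3% ± 6.08, oligodendrocyte markers 3.08% ± 3.97 and 2.56% ± 5.01. Their part in the result was not tested.

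For SAL-LPS vs SAL-SAL in the hypothalamus, a thalamic gene was among the 3 of smallest p. Tcf7l2, a thalamic transcription factor, was covered for 0%, 13.4% and 72% in SAL-SAL (8 libraries) and was at 0 in 9 of 11 SAL-LPS libraries, with 15.4% the highest. The difference was -18.9 ± 6.12 (limma adjusted p = 0.419). The Slc17a6 and Tcf7l2 domains together were at 21.1% ± 24.2 in SAL-SAL, 9.63% ± 11.5 in MOR-SAL, 4.12% ± 4.46 in SAL-LPS and 3.26% ± 7.11 in MOR-LPS (SD). Over the 41 libraries 15 of the other 298 domains had r above 0.5 with them, led by a domain of chromosome 3 with no gene within 100 kb (r = 0.76) and one inside Zfp423 (r = 0.732). The first of these (chr3:17316470-17334449) was at 0%, 49.8% and 90.2% in SAL-SAL and at 0%, 2.5% and 63.5% in SAL-LPS (limma adjusted p = 0.323). Pex5l was at 2.79%, 6.17% and 23.2% in SAL-SAL and at 0 in 9 of 11 SAL-LPS and 9 of 12 MOR-SAL libraries (limma adjusted p = 0.323 and 0.524).

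In the striatum, 64 of the 69 domains with an unadjusted p under 0.05 for MOR-LPS vs SAL-LPS were higher in MOR-LPS. They were 31.5% of the domains tested beside 12.1% of all regions, with a median difference of 0.91 over the wide domains and -1.77 over all regions. The cut to equal length ties these medians together, and its part in the opposite signs was not tested. Without the 5 striatum libraries of at least 20% oligodendrocyte markers, 4 MOR-LPS and 1 SAL-SAL, 29 domains had such a p, and the mean covered percent in MOR-LPS was 6.15% ± 4.03 (n = 11). With the number of peaks as a term there were 70. Without MOR-LPS female 12-2, limma called 9 domains, beside 0.58% of all regions.

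The domain near Slc22a16, a carnitine transporter gene, was covered for up to 80.8% in MOR-LPS, where 8 of 15 libraries were at 0, and was at 0 in 12 of 13 SAL-LPS libraries. The difference was 22.4 ± 5.87 (limma adjusted p = 0.123). The domain near Ddit4, a stress-induced inhibitor of mTOR signalling, was at 0%, 15.1% and 89.3% in MOR-LPS and 0%, 3.87% and 30.5% in SAL-LPS, a difference of 25.5 ± 6.78 (limma adjusted p = 0.123). The domain inside Gnao1, the G protein alpha subunit abundant in neurons, was at 0%, 17% and 99.9% in MOR-LPS and 0%, 2.83% and 37.4% in SAL-LPS, a difference of 31.2 ± 8.49 (limma adjusted p = 0.123). All 3 pairs of groups overlapped, and the median MOR-LPS library lay far below the highest.

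Many wide domains, those near Slc22a16 and inside Gnao1 among them, went with the myelin genes across striatum libraries. The Cnp, Mbp and Mobp domains together were covered for 0%, 4.33% and 60.7% (lowest, median and highest of 45 libraries), and 119 of the other 297 domains had r above 0.5 with them while 3 had r below -0.5. The domain near Slc22a16 had the highest r, 0.958, followed by domains inside Fbxw15 (0.947) and Fan1 (0.936), at Tmbim1 (0.934) and inside Ncam1 (0.93), and the Gnao1 domain had 0.915. On the other side stood the Mir124a-2 domain (-0.619) and domains inside Kalrn (-0.532) and near Lrrc74a (-0.501). The mean of the myelin domains correlated with the share of oligodendrocyte markers at r = 0.853 and with the log10 number of peaks at r = 0.356. By group it was 7.09% ± 13.2 in SAL-SAL, 2.62% ± 1.53 in MOR-SAL, 5.77% ± 4.9 in SAL-LPS and 18.1% ± 18.9 in MOR-LPS (SD).

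The whole list of 13 oligodendrocyte markers was uneven in the striatum. Peaks at the start were found for Cnp in 13 of 45 libraries, Mbp in 7, Mog in 5, Mag and Mobp in 4 each, Ermn in 2 and Opalin in 1, and none of the libraries had one for Cldn11, Myrf, Olig1, Olig2 or Sox10. The share of the list with a peak was 11.8% ± 14.2 in MOR-LPS, from 0% to 38.5%, and 2.37% ± 4.85 in SAL-LPS, from 0% to 15.4%. Neuron markers were at 17.2% ± 15.6 and 21.8% ± 12. The part of these markers in the result was not tested, and in such bulk nuclei more nuclei of a type and more mark per nucleus cannot be told apart.

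**Figure D5:**
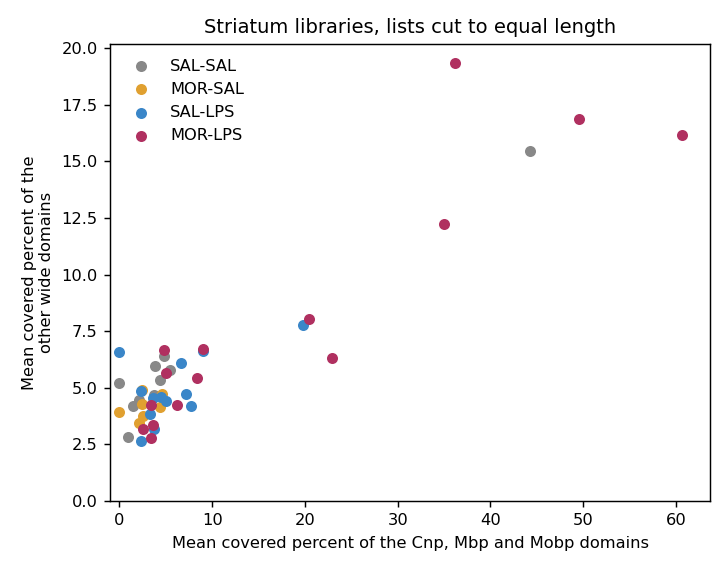
Mean covered percent of the Cnp, Mbp and Mobp domains (x) and of the other 297 wide domains (y) in each of the 45 striatum libraries, coloured by treatment group, with lists cut to equal covered length. Libraries high on both axes are 4 MOR-LPS libraries, among them female 15-3, which is not one of those with at least 20% of the markers, and 1 SAL-SAL library. The others lie in 1 cloud below 10% on the y axis.

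MOR-LPS vs MOR-SAL in the striatum uses the same MOR-LPS libraries, and 47 of 50 domains with an unadjusted p under 0.05 were higher in MOR-LPS. They were 22.8% of the wide domains tested beside 11.7% of all regions, with median differences of 1.76 and -1.49, again tied by the cut to equal length. Gnao1 was at 0%, 3.31% and 5.95% in MOR-SAL (7 libraries; limma adjusted p = 0.154) and Ddit4 at 0%, 2.86% and 13.4% (limma adjusted p = 0.167). A domain of chromosome 3 with no gene within 100 kb (chr3:17316507-17334520) lay lower in value, at 0%, 0% and 75.7% in MOR-LPS against 10.2%, 47.7% and 75.5% in MOR-SAL (limma adjusted p = 0.194). In the comparisons without LPS-treated morphine mice, 2 domains each had an unadjusted p under 0.05, and the smallest p belonged to Pcdh9, a protocadherin gene, followed by Igsf11 and Cacna1c for MOR-SAL vs SAL-SAL, and to Gm43517, Cnst and Syt1 for SAL-LPS vs SAL-SAL. Syt1 was at 8.38%, 21.9% and 37.2% in SAL-LPS and 0%, 13.8% and 28.8% in SAL-SAL (limma adjusted p = 0.872). Pcdh9 and Cnst turned direction under other ways of reading the lists.

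In PFC, Trappc12 came first for MOR-LPS vs SAL-LPS, with 0%, 12.6% and 32.1% in MOR-LPS (14 libraries) and 8 of 11 SAL-LPS libraries at 0, a difference of 12.2 ± 4.27 (limma adjusted p = 0.22). Bcl11a, the cortical factor, was lower in value, at 0%, 29.7% and 50.5% in MOR-LPS against 24.9%, 45.3% and 81.9% in SAL-LPS, a difference of -27 ± 9.59 (limma adjusted p = 0.223). Ptprn2 was at 0%, 12.6% and 50.6% against 8.75%, 27.6% and 63.4% (limma adjusted p = 0.309). For MOR-SAL vs SAL-SAL the smallest p belonged to Atxn1, Ttc7b and Sipa1l1, each at 0 in at least 7 of 9 MOR-SAL libraries, with a limma adjusted p of 1. For SAL-LPS vs SAL-SAL, Ephx4 was at 18.4%, 26% and 48.1% against 0%, 14.7% and 24.5% (limma adjusted p = 0.566), and Neu2 was next to Arc, described below. For MOR-LPS vs MOR-SAL, a domain in Grin2b and one without a gene within 100 kb on chromosome 2 were among the first (limma adjusted p = 0.52 each).

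PFC libraries also differed in the domains at 3 genes of the striatal projection neuron list. Of these genes, Foxp2 and Rgs9 were not wide in the striatum, and Arpp21 had a peak at its start in 38 of 44 hippocampus libraries. The Arpp21, Foxp2 and Rgs9 domains were covered for 0%, 16% and 42.1% over 42 libraries. Of 293 other domains 37 had r above 0.5 with them. A domain inside Ptprn2 had the highest r (0.781), followed by domains with no gene within 100 kb (0.752 and 0.75). Next came a domain inside Gnal (0.732) and more domains with no gene within 100 kb (0.728 and 0.717). Domains inside Ppp3ca (0.711), Lims1 (0.708) and Pde10a (0.696) followed. Pde10a is a member of the same list. The mean of the Arpp21, Foxp2 and Rgs9 domains correlated with the share of the whole list with a peak at r = 0.427. Cyth1 (-0.587) and Ralgds (-0.502) were below -0.5. By group the Arpp21, Foxp2 and Rgs9 domains were at 18.8% ± 11.4 in SAL-SAL, 20.6% ± 11.7 in MOR-SAL, 21.1% ± 9.75 in SAL-LPS and 13.4% ± 6.84 in MOR-LPS (SD). With the myelin domains of Cnp and Ermn 57 of 295 other domains had r above 0.5, up to 0.999 inside Ppp1r16b. These domains were covered for 73.7% in SAL-SAL female 9-4 and for at most 3.68% in the other libraries.

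In the hippocampus the comparison with the smallest adjusted p was SAL-LPS vs SAL-SAL, where 22 of 26 domains with an unadjusted p under 0.05 were lower in SAL-LPS, 9.06% of those tested beside 9.2% of all regions. Tcf4, a basic helix-loop-helix factor, came first. It was covered for 10.9%, 48.9% and 67.1% in SAL-SAL (11 libraries) and 0%, 4.79% and 28.4% in SAL-LPS (12 libraries), a difference of -30.2 ± 7.81 (limma adjusted p = 0.119). Rtn4r, the Nogo receptor gene, was at 12.4%, 39.8% and 60.6% against 0%, 6.25% and 25% (limma adjusted p = 0.277), and a domain at Myt1l at 4.7%, 14.5% and 37.3% against 0%, 5.21% and 11.5% (limma adjusted p = 0.283). Groups overlapped at all 3. SAL-LPS libraries had fewer peaks, as given above, and with the number of peaks as a term 10 domains had an unadjusted p under 0.05. For MOR-SAL vs SAL-SAL the first were near Arap3 (-18.2 ± 5.92), at Tcf4 (-20.3 ± 7.95) and in Myt1l (-18.2 ± 7.23), with limma adjusted p from 0.673 to 0.695. For MOR-LPS vs SAL-LPS they were in Tom1l2, at Arpp21 and in Gm20388 (limma adjusted p = 0.999), and for MOR-LPS vs MOR-SAL in Tom1l2, at Pkig and in Slc24a2 (limma adjusted p = 0.929).

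The shared loci were then read by group. The Mir9-2 domain was covered for 4.65%, 46.8% and 70.5% in SAL-LPS and 16.4%, 39.9% and 79.5% in MOR-LPS of PFC, and for 4.61%, 15.5% and 42.6% and 3.11%, 20.6% and 51.7% in the hypothalamus. The groups overlapped throughout, and the MOR-LPS minus SAL-LPS differences were 0.484 ± 8.95, 4.14 ± 6.5, 2.34 ± 6.52 and 1.66 ± 6.71 (SE, limma adjusted p from 0.89 to 0.999).

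The Mir124a-2 domain was lower in value in MOR-LPS than in SAL-LPS in all 4 brain regions. In the hypothalamus it was at 0%, 3.46% and 50.7% in MOR-LPS and 3.7%, 21.7% and 67.5% in SAL-LPS, and in the striatum at 0%, 29.2% and 93.5% against 14.9%, 38.7% and 80.8%. The differences were -15.6 ± 7.86, -7.68 ± 6.77, -16.9 ± 9.68 and -15 ± 9.54, with limma adjusted p of 0.406, 0.999, 0.409 and 0.536. The brain regions come from the same animals, and none of the 4 differences passed the test.

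The Cyth1 domain went the other way in value, by 16.2 ± 8.21, 2.47 ± 7.28, 18.4 ± 7.72 and 15.1 ± 6.85 (limma adjusted p of 0.406, 0.999, 0.257 and 0.345). In the hypothalamus it was at 8.48%, 22.4% and 74.4% in MOR-LPS and 0%, 11.4% and 41.7% in SAL-LPS, and the groups overlapped. Arc, the only member of the immediate early gene list with a start in a wide domain, did not pass the test for SAL-LPS vs SAL-SAL. Its domain was at 0%, 12.6% and 22.5% in SAL-SAL of PFC and at 0 in 9 of 11 SAL-LPS libraries, a difference of -8.6 ± 3.48 (limma adjusted p = 0.566) that became 7.44 in full lists. The differences in hippocampus, hypothalamus and striatum were -2.3 ± 2.66, 1.14 ± 3.98 and -6.75 ± 3.94 (limma adjusted p of 0.831, 0.979 and 0.872).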

How the data were processed

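Peak lists of 174 libraries and 4 consensus lists were read. Per the labels and methods, reads went through Trim Galore 0.6.7, Bowtie2 2.4.5 on the mm10 assembly and SAMtools 1.15.1, and the authors ran MACS2 2.2.7.1 on each library with a q-value limit of 0.05. The deposited −log10 p and −log10 q of each peak and its deposited fold enrichment, a ratio over local background, come from MACS2. Only −log10 p, to rank peaks, and −log10 q, for a stricter list, were used. Consensus regions came from DiffBind 3.10.1, run by the authors on all libraries of a brain region, and hold no value beyond their positions. Counts per region were not used here, so the authors' DESeq2 fit was not repeated. The 32 input libraries were not analysed here.

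The members and gene lists were chosen with earlier results of these data known. The lists of hippocampus SAL-LPS males 1-2 and 5-2 were the same throughout and entered as 1 sample, PFC SAL-SAL female 9-2 (4371 peaks) fell under the minimum of 10000, and PFC MOR-LPS female 12-2 holds peaks named for 12-0 and kept its label. This left 172 lists. Lists were cut to the covered length of the shortest of the brain region: 5.09 Mb in PFC, 3.88 Mb in the hippocampus, 6.51 Mb in the hypothalamus and 4.97 Mb in the striatum. The PFC length was set by MOR-SAL male 13-1. The number of peaks stood for depth, since read depth is unknown.

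Covered percent was fitted with limma 3.58.1 in R 4.3.3 (mean-variance trend, group and sex as terms, 1 fit per brain region, all regions with a peak in at least 20% of libraries), two-sided, with Benjamini-Hochberg adjustment per comparison. The fit was also run on simulated data. The shift there was larger than the differences given above for named domains, so that run does not show the power for them. P-values measure the spread between animals of a group. The first number of the animal name, whose meaning the labels do not give, was nested in perinatal treatment, and its correlation over regions was between -0.0267 and -0.00418, so it was not in the model. Start sites are those of protein-coding genes in GENCODE M21, and a domain is named by the genes whose start it holds, else its host gene ("in", "inside"), else the nearest start within 100 kb ("near"). Named domains are the 10 widest, the 10 widest shared loci, the widest at each listed gene, the 3 on each side of the limit and the 3 of smallest p per comparison. A few named by this rule are not reported here. Others were chosen after their values were seen: the microRNA loci, the genes wide in all 4, the leaders by number of libraries and the correlated domains. Alternatives were full lists, lists of equal number of peaks, percentile ranks, a stricter −log10 q of 3, no filter, the number of peaks as a term, no sex term, a block on the first number of the animal name, and leaving out libraries.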

Additional observations from a re-analysis of the deposited data

Results flagged for a closer look

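The highest library of a group stood far from the others (Dixon's test, groups of up to 10 libraries) in 6 of the 14 group and measure pairs examined. Marker shares move in steps of 1 marker, with many libraries at 0, while the test assumes continuous values. Both measures also come from the same libraries, so the number of flags is a description. The mean covered percent of the wide domains was 19% in PFC SAL-SAL female 9-4, with 11% the next highest of 8, and 15.8% in striatum SAL-SAL female 9-4, with 6.38% the next highest of 10. Both libraries come from the same animal and were also highest in oligodendrocyte markers with a peak, at 23.1% in PFC (next 7.69%) and 38.5% in the striatum (next 7.69%). Among the 9 MOR-SAL libraries of PFC the oligodendrocyte marker share was highest in male 13-1, at 15.4%, which is also the library with few peaks in the consensus. Among the 10 MOR-LPS libraries of the hippocampus female 18-1 was at 7.69% and the others at 0%, a difference of 1 marker. In PFC, SAL-SAL female 9-4 gave the longest peak in 112 of the 300 domains, and without it the SAL-SAL mean was 9.49% ± 1.14 (SD, n = 7).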

How the results depend on the processing

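With lists of equal number of peaks, limma called 8 wide domains in the hippocampus for SAL-LPS vs SAL-SAL (beside 1.9% of all regions tested), 59 and 46 in the hypothalamus for MOR-LPS vs SAL-LPS and vs MOR-SAL (7.02% and 5.44%), and 138 in the striatum for MOR-LPS vs SAL-LPS (11.5%), and full lists gave 208, 123, 102 and 159 (51%, 21.4%, 17% and 14%). Percentile ranks gave 25 and 21 (4.27% and 3.82%, full lists) and 13 and 16 (1.16% and 1.48%, equal number) in the hypothalamus, 2 and 1 there for SAL-LPS vs SAL-SAL (0.305% and 0.12%), 13 and 18 in the striatum for MOR-LPS vs SAL-LPS (3.34% and 1.19%) and 1 (0.238%, full lists) vs MOR-SAL. Without sex in the model 2 were called in the hypothalamus for MOR-LPS vs MOR-SAL (0.571%), and without the libraries of 20% or more oligodendrocyte markers 1 for SAL-LPS vs SAL-SAL (0.19%). Leaving out 1 library gave 0 to 4 calls in the hypothalamus (3 of 21 refits, with 4 without MOR-LPS 18-1, 3 without 13-2 and 1 without 7-1) and 0 to 9 in the striatum (1 of 28, without MOR-LPS female 12-2) for MOR-LPS vs SAL-LPS. With the first number of the animal name as a replicate block, the number of peaks as a term, no filter or a stricter −log10 q, 0 domains were called in all 16 comparisons. Full lists, and lists of equal number of peaks, differ in covered length. The MOR-LPS minus SAL-LPS mean covered percent was -10.2, 4.36, 14.6 and 14 in full lists (PFC, hippocampus, hypothalamus, striatum) and -6.45, 8.43 and 10.1 with equal numbers in PFC, hypothalamus and striatum. Differences that turned direction were those of Atxn1 (2.52), Ttc7b (6.81), Sipa1l1 (4.39) and Arc (7.44) in full lists, Pcdh9 (-1.54 and -3.59) and Cnst (-0.206, -0.042 and -0.37); the cause was not tested. Of the alternatives for named domains 578 kept direction and side of the threshold, in 38 the domain passed it and 9 turned direction. Domains overlapping another brain region were 47.2% when 50% of both had to overlap and 50.2% among the 100 widest, against 55.3%, and list entries in a wide domain were 64 when any overlap of the gene body counted, against 36. Leaving out libraries by markers, or MOR-SAL male 13-1, was chosen after seeing the data.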

Other observations

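Some wide domains lay away from any protein-coding gene. Of the domains outside genes, 14 of 30 in PFC, 22 of 44 in the hippocampus, 20 of 27 in the hypothalamus and 14 of 26 in the striatum overlapped a long non-coding RNA gene of the RefSeq annotation. Of those with no protein-coding start within 100 kb, 11 of 11 in the hypothalamus did so, against 6 of 15 in PFC, 6 of 17 in the hippocampus and 6 of 12 in the striatum. These sets are small and were not tested. The share among other consensus regions outside genes was not counted, so the counts are a description.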
